A study of Mus musculus with 5 samples.

Results

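Meis1, Meis2, Meis3, Pknox1 and Pknox2 are the mouse genes of the MEIS and PREP families of homeobox transcription factors, and their RNA levels were followed here through 5 RNA-seq libraries of mouse embryonic fibroblasts (MEFs). They were chosen by name: each deposited locus whose gene column is, or contains, one of these symbols was taken. All 5 were found, each at 1 locus of its own and none in a locus that joins several genes, out of 21372 gene symbols at single-gene loci. Pknox1 encodes the protein Prep1 and Pknox2 encodes Prep2.

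MEFs are connective-tissue cells grown from embryos. The library M came from cells overexpressing Meis1, the library labelled P from cells overexpressing Prep1, the library labelled MP from cells overexpressing both, and EV from cells infected with an empty vector. All 4 of these carried the Prep1 hypomorphic genotype, meaning an allele that lowers Prep1 expression, so the controls of the added genes lack normal Prep1 too. WT cells were Prep1 wild-type, and their label names neither a vector nor an infection. Every library is labelled C57BL/6 strain and passage 30, and the growth protocol, which names hypomorphic embryos for every sample, gives the embryonic stage E14.5. The labels do not give the species or sequence of the added Meis1 and Prep1, the vector, the promoter driving them, or the number of embryos or clones behind a line. Each group held 1 library, so no difference below has a replicate check, no test was made, and each comparison is between libraries rather than conditions. WT differs from EV in genotype, in infection and in line at once, and these cannot be told apart.

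MEIS and PREP proteins belong to the TALE homeobox class, named for a loop of extra residues in the homeodomain. Both families bind PBX proteins, which are TALE factors themselves, and the dimers bind DNA alone or together with HOX proteins. Because MEIS and PREP use the same surface of PBX, they compete for it. In mice, Meis1 is known as a partner of Hoxa9 in leukaemia, and Prep1 has been described as a tumour suppressor whose loss leaves more PBX for Meis1. The study's title places the pair in tumour induction and suppression, and its design set added Meis1, added Prep1 and both beside empty-vector and wild-type cells.

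The coding stretch of the third homeodomain helix, the helix that contacts DNA, is shown so that the members can be compared in the part of the protein that meets the DNA. The 60 bases (20 codons) below are read 5′ to 3′ on the coding strand from the GENCODE transcripts of build GRCm38, and capitals mark bases that differ from Meis1.
Meis1: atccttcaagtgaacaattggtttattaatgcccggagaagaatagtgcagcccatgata
Meis2: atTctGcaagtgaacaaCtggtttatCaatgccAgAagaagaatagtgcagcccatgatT
Meis3: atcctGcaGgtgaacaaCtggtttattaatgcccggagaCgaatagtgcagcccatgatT
Pknox1: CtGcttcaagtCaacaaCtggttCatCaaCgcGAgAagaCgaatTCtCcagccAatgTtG
Pknox2: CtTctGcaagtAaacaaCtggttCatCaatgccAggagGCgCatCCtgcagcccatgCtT
Meis2 differed from Meis1 at 7 bases and Meis3 at 5, and none of these changed an amino acid. Pknox1 differed at 17 bases and Pknox2 at 15, and 3 codons in each encoded another residue. Over all their annotated transcripts, the longest identical run between any pair of the 5 genes was 32 bases, between Meis1 and Meis2. Within coding sequences the longest was 28 bases, between Meis2 and Meis3, and Meis1 and Meis2 shared 23. No stretch of 36 bases was shared between members. No source used here gives the read length, and reads no longer than the 32-base run could fit both genes there. Meis1 lies on chromosome 11, Meis2 on 2, Meis3 on 7, Pknox1 on 17 and Pknox2 on 9.

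Levels are given in scaled units, which are the deposited FPKM values (fragments per kilobase of transcript and per unit of mapped fragments) divided by the upper quartile of their library and multiplied by 10. The scaling was needed because the upper quartile was 428.7 FPKM in M, 11.6 in the library labelled P, 9.63 in the library labelled MP, 157.4 in EV and 12.2 in WT. Without scaling, the median gene lay 1.42 higher on the log2 scale in M than in EV, and lower by far in the libraries labelled P and MP than in EV (log2 -3.82 and -3.86). Values were also compressed: of genes at 5 units or more, 96.6% to 98.9% per library lay between 5 and 20. Signal at 1422 olfactory and vomeronasal receptor genes (Olfr and Vmn), which belong to nasal sensory neurons, was above 0 for 70.0% of them in M, 10.9% in the library labelled P, 12.7% in the library labelled MP, 99.9% in EV and 17.1% in WT. The 99th percentile of these receptor genes was 1.39 units in M, 0.341 in the library labelled P, 0.313 in the library labelled MP, 0.868 in EV and 0.369 in WT. Fibroblast markers were present, with 11 to 14 of 14 at 1 unit or more and summed levels of 139.7 to 162.7. Fap, Dpt and Lum stayed under 1 unit in the 4 hypomorphic libraries. Of the other cell types, 0 or 1 of 7 epithelial markers (summed levels 0.453 to 3.58), 1 or 2 of 5 blood markers (2.93 to 4.53), 0 of 4 endothelial markers (0.663 to 1.75) and 1 or 2 of 6 neural markers (8.07 to 13.1) reached 1 unit. These are bulk cultures, so fewer cells that use a gene and less RNA per cell cannot be told apart.

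**Figure D1:**
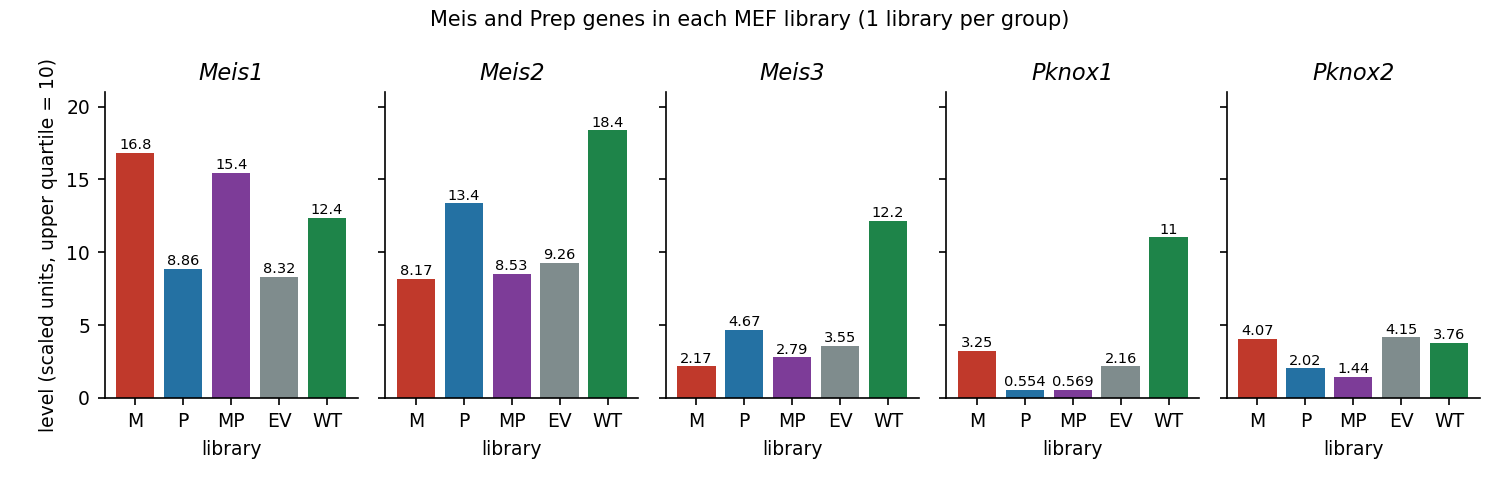
Level of each of the 5 genes (vertical axis, scaled units, library upper quartile set to 10) in the 5 libraries, 1 bar per library with its value above it and no error bar because each group held 1 library. Pknox1 stands at 11.02 in WT and at 0.554 and 0.569 in the libraries labelled P and MP, and Meis1 is highest in M and in the library labelled MP.

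Meis1 was the most abundant member in the lines made to overexpress it. Its level was 16.8 units in M, 8.86 in the library labelled P, 15.4 in the library labelled MP, 8.32 in EV and 12.4 in WT. Both Meis1-labelled libraries therefore stood above WT, and the other hypomorphic libraries stood below it. As deposited, the values were 721 FPKM in M, 10.3 in the library labelled P, 14.9 in the library labelled MP, 131 in EV and 15.04 in WT, which mainly follow the level of each library. M held 202% of the EV level of Meis1, and the library labelled MP held 186%. On the log2 scale with 1 unit added, which understates the change of low genes, M over EV was 0.93, and 99.6% of the genes kept had a ratio at or below it. The library labelled MP over EV was 0.82, where 99.6% of genes were at or below it. Neither ratio reached the 2-fold threshold of 1 used here. M over EV passed it with median scaling (1.06), with housekeeping scaling (1.04) and with 0.1 units added (1.01). It also did after subtracting the median of loci without a symbol (1.07), and MP over EV did with median scaling (1.31). Median scaling sets the library median to 10 and still adds 1 unit, so ratios under it also reflect a smaller weight of that unit.

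Meis1 ranked at percentile 96.8 of all genes in M, 69.1 in EV and 90.2 in WT, so it was well expressed without an added copy too. The library labelled P lay 0.08 above EV on the log2 scale and was the nearest to it. The library labelled MP lay 0.12 below M, a direction that turned with median scaling (0.25). Against the library labelled P, the library labelled MP was 0.74 higher, with 99.4% of genes at or below that ratio. That ratio passed the 2-fold threshold with median scaling (1.185). EV lay 0.52 below WT, with 15.6% of genes at or below it. From high to low the order was M, labelled MP, WT, labelled P and EV, a span of 2.02-fold. With 1 library each, which neighbours in that order differ beyond culture-to-culture spread could not be measured.

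Meis2, a MEIS protein of limb, brain and heart development, had a different order from Meis1. Its level was 8.17 units in M, 13.4 in the library labelled P, 8.53 in the library labelled MP, 9.26 in EV and 18.4 in WT. WT stood highest, at the 99.2 percentile of genes, and the library labelled P stood above the other hypomorphic libraries. On the log2 scale M over EV was -0.16, the library labelled P over EV was 0.49 and the library labelled MP over EV was -0.11. The last turned positive with median scaling (0.31), with housekeeping scaling (0.01) and after subtracting the median of loci without a symbol (0.05). EV over WT was -0.92, under the 2-fold threshold, and passed it with quantile normalization (-1.03), with housekeeping scaling (-1.24) and after subtracting the median of loci without a symbol (-1.07). EV held 50.4% of the WT level. Between the lines that differ in added Meis1, M over EV was -0.16 and the library labelled MP over the library labelled P was -0.59, where 4.89% of genes were at or below it.

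Meis3, known in Xenopus for its part in hindbrain patterning, was the lowest of the Meis genes in every library, with WT the one where it came close to Meis1. Its level was 2.17 units in M, 4.67 in the library labelled P, 2.79 in the library labelled MP, 3.55 in EV and 12.2 in WT. WT stood well apart, and the order of the other libraries was the same as for Meis2, with the library labelled P above EV, then the library labelled MP, then M. EV held 29.2% of the WT level, and the log2 ratio of EV over WT was -1.53, with 3.01% of genes at or below it; on unscaled values it read 2.01, since EV as a whole lay 3.79 above WT there. The range over the other alternatives was -1.91 to -1.40. M over EV was -0.52, with 3.62% of genes at or below it, and the library labelled MP over the library labelled P was -0.58, with 5.12% at or below it. The library labelled MP over EV was -0.26 and turned positive with median scaling (0.09) and after subtracting the median of loci without a symbol (0.12). The Meis3 values in M and EV, at 2.17 and 3.55, lay above the 99th percentile of receptor genes in those libraries, 1.39 and 0.868. After subtracting the median of the receptor genes, M over EV was -0.52, and after subtracting that of loci without a symbol it was -0.37. What the receptor signal adds to each level was not tested.

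**Figure D2:**
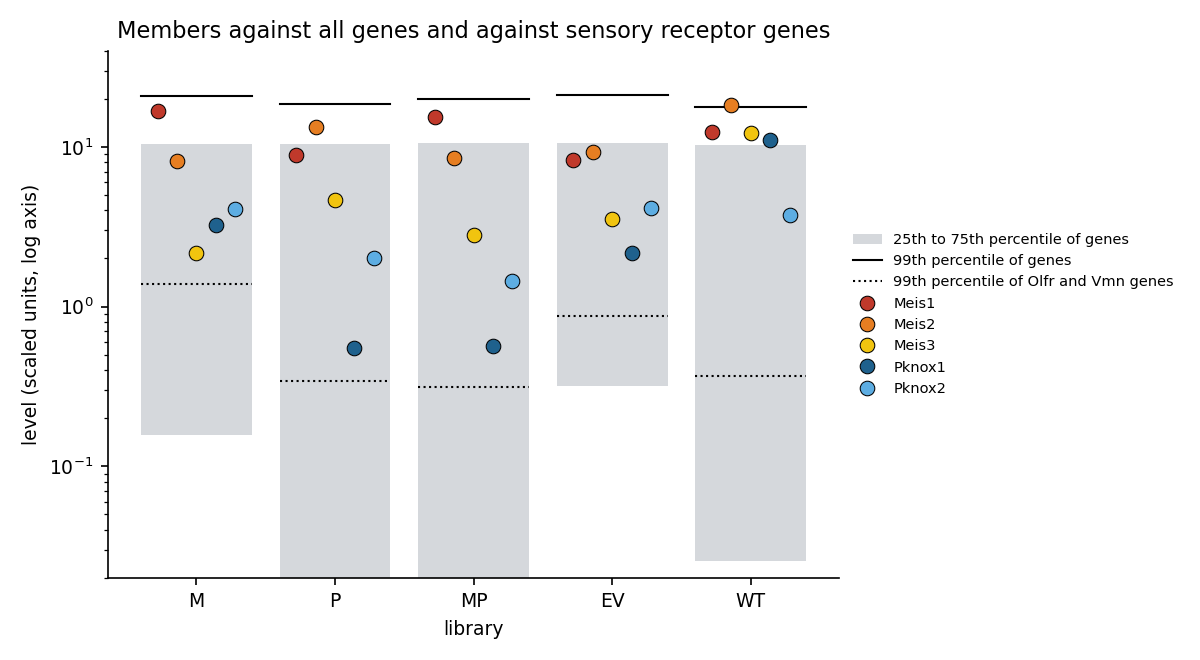
Level of each gene (points, scaled units on a log axis) in the 5 libraries, over the 25th to 75th percentile of all genes (grey box), the 99th percentile of all genes (solid line) and the 99th percentile of the Olfr and Vmn receptor genes (dotted line). In M, 16.8 units of Meis1 lie close to the 99th percentile of all genes at 20.8, and Pknox1 at 0.554 and 0.569 in the libraries labelled P and MP lies just above the receptor lines at 0.341 and 0.313.

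Pknox1 encodes Prep1, the factor that was lowered by genotype in 4 lines and that the labels say was added in 2 of them. Its level was 3.25 units in M, 0.554 in the library labelled P, 0.569 in the library labelled MP, 2.16 in EV and 11.02 in WT. WT was highest by far, and the libraries labelled P and MP were the lowest. EV, hypomorphic by genotype, held 19.6% of the WT level. The libraries labelled as overexpressing Prep1 held 25.6% (P) and 26.3% (MP) of the EV level, and 5.03% (P) and 5.16% (MP) of the WT level. Pknox1 therefore goes against both labels, and that limit holds for each direction taken from these libraries below. Whether the added Prep1 would be counted at this locus is not known, because neither its species nor its sequence is given.

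On the log2 scale EV over WT was -1.93 for Pknox1, with 1.67% of genes at or below it, and stayed between -2.51 and -1.93 over the alternatives, apart from unscaled values, where it read 1.44. The library labelled P over EV was -1.03, with 1.69% of genes at or below it, and the library labelled MP over EV was -1.01, with 1.98%. Both lie close to the threshold. They fell short of it with quantile normalization (-0.98 for P and -0.83 for MP), with housekeeping scaling (-0.75 and -0.78) and after subtracting the median of the receptor genes (-0.89 and -0.88) or of loci without a symbol (-0.44 and -0.43). With 0.1 units added they were -1.79 for P and -1.76 for MP. The library labelled MP over M was -1.44, with 0.267% of genes at or below it, and stayed between -2.32 and -1.25. The EV level of 2.16 units was above the receptor 99th percentile of 0.868 and above the median of 1.05 units at loci without a symbol, and how much of it is such signal was not tested. M stood 0.42 above EV. The libraries labelled P and MP differed by 0.01, a sign that turned with housekeeping scaling (-0.03), and both lay under the 1-unit filter.

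Pknox2, the PREP gene with a more tissue-restricted expression, stood at about the WT level in EV with upper-quartile scaling. Its level was 4.07 units in M, 2.02 in the library labelled P, 1.44 in the library labelled MP, 4.15 in EV and 3.76 in WT. M, EV and WT lay within 0.11 of each other on the log2 scale, and the libraries labelled P and MP lay below them. The ratio of EV over WT was 0.11, with a range of -0.22 to 0.56 over the scaled alternatives. It turned negative with housekeeping scaling (-0.18) and after subtracting the median of loci without a symbol (-0.22). With quantile normalization it was 0.56. The library labelled P held 48.7% of the EV level (log2 -0.77, with 2.86% of genes at or below it), and the library labelled MP held 34.7% (log2 -1.08, with 1.52%). With 0.1 units added, P over EV just passed the 2-fold threshold (-1.002). After subtracting the median of loci without a symbol, P over EV was -0.44. The ratio of the library labelled MP over M was -1.06, with 1.01% at or below it. These ratios of the library labelled MP fell short of the threshold with quantile normalization (-0.94 over EV and -0.89 over M) and housekeeping scaling (-0.87 over EV and -0.96 over M). Subtracting the median of loci without a symbol gave -0.75 over EV and -0.92 over M. Pknox1 and Pknox2 were thus both lowest in the pair of libraries labelled as overexpressing Prep1.

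**Figure D3:**
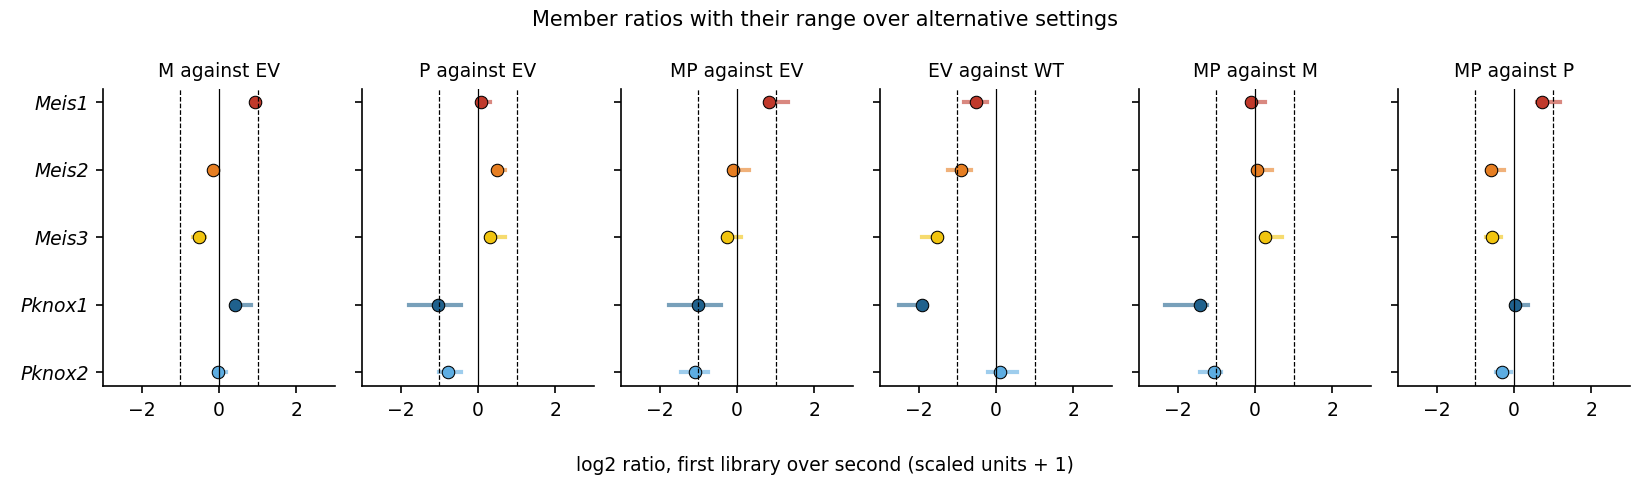
Log2 ratio (horizontal axis, first library over second, 1 scaled unit added) of each gene in 6 comparisons; points are the values with upper-quartile scaling, bars span the alternatives other than unscaled values, and dashed lines mark 2-fold. Pknox1 lies at -1.93 for EV over WT with its whole bar past the line, while its bars for the libraries labelled P and MP over EV cross the line.

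Between 0 and 2 members passed the 2-fold threshold in each comparison, given here beside the share of all genes kept (those at 1 unit or more in either library). In M over EV, 0 of 5 were higher and 0 lower, where 0.296% of 11144 genes were higher and 0.628% lower. For the library labelled P over EV, 0 were higher and 1 lower (Pknox1), where 0.654% of 11163 genes were higher and 1.85% lower. In the library labelled MP over EV, 0 were higher and 2 lower (Pknox1 and Pknox2), where 0.208% of 11034 genes were higher and 2.05% lower. In EV over WT, 0 were higher and 2 lower (Meis3 and Pknox1), where 3.2% of 11657 genes were higher and 6.31% lower. In the library labelled MP over M, 0 were higher and 2 lower (Pknox1 and Pknox2), where 0.23% of 10855 genes were higher and 1.28% lower. Between the libraries labelled MP and P, MP over P, 0 were higher and 0 lower among the 4 kept, where 0.251% of 10771 genes were higher and 0.761% lower. Subtracting the median of loci without a symbol turned the split of all genes over EV to 152 higher and 47 lower in M, 646 and 72 in the library labelled P, and 306 and 77 in the library labelled MP. Comparisons with EV share that library, so their values are not independent of each other.

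The authors' deposited table for M and EV marked Meis1 as significant (q = 0.0175) and Meis3 as not (q = 0.125), and its test had failed for Meis2, Pknox1 and Pknox2. That table called 4.4% of 22894 single-gene loci. The authors' deposited tables for the library labelled P, the library labelled MP and WT, each set against EV, marked all 5 members as significant, with q listed as 0. They called 43.3% (P), 41.2% (MP) and 44.6% (WT) of single-gene loci, so being called there says little about a member. These tests were of 1 library against 1 library on the unscaled levels.

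The balance between the families differed more than the MEIS total did. The 3 Meis genes summed to 27.1 units in M, 26.9 in the library labelled P, 26.8 in the library labelled MP, 21.1 in EV and 42.9 in WT. The pair of Prep genes summed to 7.32 units in M, 2.57 in the library labelled P, 2.01 in the library labelled MP, 6.31 in EV and 14.8 in WT. M and the libraries labelled P and MP thus had nearly equal MEIS sums with upper-quartile scaling. Median scaling moved the median gene by 0.37 on the log2 scale in MP over M and 0.39 in MP over P, and the sums were not computed under it. Meis1 made up 61.9% of the MEIS sum in M, 33.0% in the library labelled P and 57.7% in the library labelled MP, against 39.4% in EV and 28.8% in WT. Pknox1 made up 44.4% of the Prep sum in M, 21.5% in the library labelled P, 28.3% in the library labelled MP, 34.3% in EV and 74.6% in WT. WT was the only library of the 5 in which Pknox1 was the larger Prep gene.

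Meis1 over Pknox1, the ratio of the genes that the study manipulated, was 5.18 in M, 16.0 in the library labelled P, 27.1 in the library labelled MP, 3.84 in EV and 1.12 in WT. The ratio of all Meis to all Prep transcripts was 3.71 in M, 10.45 in the library labelled P, 13.3 in the library labelled MP, 3.35 in EV and 2.90 in WT. By RNA at these loci, the libraries labelled as carrying added Prep1 had the lowest share of Prep transcripts. These ratios are of levels within a library, so the scaling between libraries does not enter them, but background signal does. The compression of values described above enters these ratios too, and also the sums and shares of the families. The median at loci without a symbol was 1.05 units in EV, 0.471 in M and 0 in WT and the libraries labelled P and MP. Pknox1 was at 2.16 units in EV, and at 0.554 and 0.569 in the libraries labelled P and MP, under the 1-unit filter. How far background and compression move the ratios, and the order of M and EV in them, was not tested.

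**Figure D4:**
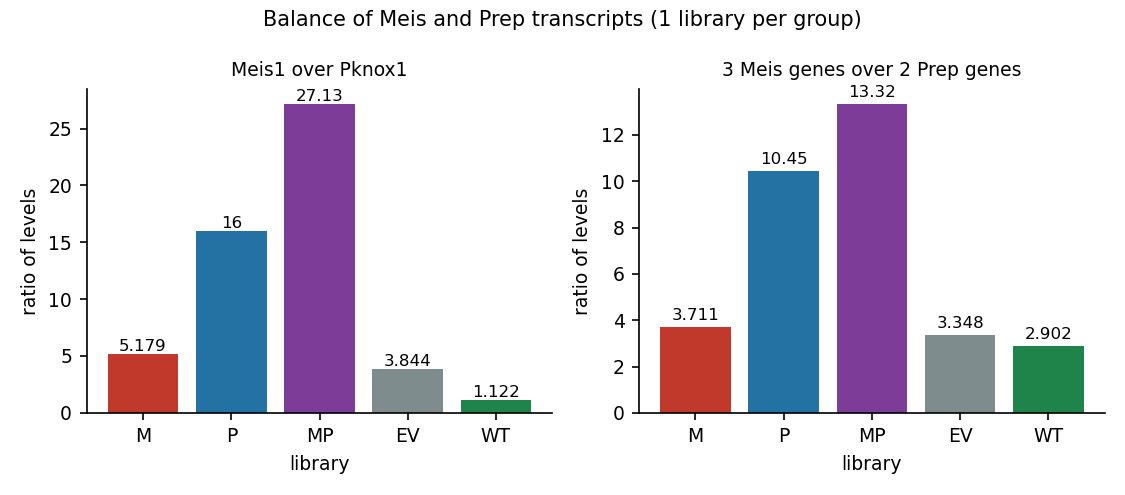
Ratio of levels within each library (vertical axes start at 0; 1 bar per library): Meis1 over Pknox1 on the left, the sum of the 3 Meis genes over the sum of the Prep genes on the right. Meis1 over Pknox1 is 27.1 in the library labelled MP and 16.0 in the library labelled P, against 3.84 in EV and 1.12 in WT. Pknox1 is under 1 unit in the libraries labelled P and MP, and background signal was not subtracted.

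Among the PBX partners of MEIS and PREP proteins, Pbx3 lay between 10.5 and 11.99 in all 5. Pbx2 shares a deposited locus with Ager, and that joined locus lay between 10.0 and 12.9. Pbx4 was at 0.455 in M, 0.863 in the library labelled P, 0.244 in the library labelled MP, 1.54 in EV and 1.08 in WT. Of the 4 listed partners with a locus of their own, Pbx4 alone passed 2-fold, in the library labelled MP over EV (log2 -1.03). In that comparison 2.05% of all genes kept were lower. The EV level of Pbx4, 1.54, compares with 0.868 for the receptor 99th percentile and 1.05 for the median of loci without a symbol in EV. Pbxip1, a protein that binds PBX factors, was at 13.2 in EV and 7.96 in WT. The median log2 ratio of the partners was 0.02 in M over EV, beside -0.01 for all genes kept, and 0.06 in EV over WT, beside 0.07.

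Among the other TALE genes (Tgif1, Tgif2, Irx1 to Irx6 and Mkx), 0 of 6 or 7 kept passed 2-fold in the comparisons within the hypomorphic lines, where between 0.208% and 2.05% of all genes did in each direction. In EV over WT, 2 of 7 were higher, beside 3.2% of all genes. Irx1 was at 8.58 units in EV and 0.701 in WT (log2 2.49), and Irx2 at 2.20 in EV and 0.0507 in WT (log2 1.61). Both encode Iroquois factors of limb and lung patterning. Mkx, a TALE factor of tendon, was at 15.5 units in M, 8.10 in the library labelled P, 13.7 in the library labelled MP, 10.5 in EV and 9.86 in WT. Its highest values were in the same libraries as those of Meis1.

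Of 16 HOX genes of paralog groups 9 to 13, which include the HOX partners of MEIS proteins, 12 had a locus of their own and 1 of these, Hoxc9, was kept. Hoxc9 was at 3.82 units in M, 5.76 in the library labelled P, 3.38 in the library labelled MP, 4.19 in EV and 0.750 in WT. Its ratio of EV over WT was 1.57, in a comparison where 3.2% of all genes kept were at least 2-fold higher. Hoxa9 and Hoxa10 share a joined locus with Mir196b, which stood at 19.96 units in M, 20.5 in the library labelled P, 18.8 in the library labelled MP, 18.5 in EV and 7.02 in WT. Both were lowest in WT. The joined loci that hold Hoxb9 and Hoxc10 did not stand apart in this way, with log2 ratios of EV over WT of 0.35 and 0.10.

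Genes reported elsewhere as MEIS1 targets did not pass 2-fold in any comparison: 0 of 6 kept were higher or lower in M over EV, where 0.296% of all genes were higher and 0.628% lower. At such shares 0 of 6 says nothing particular about the targets, which had a median log2 ratio of 0.19 beside -0.01 for all genes kept. The library labelled MP over EV gave a median of 0.26 beside -0.04, and the library labelled P over EV gave -0.14 beside -0.05. Cdkn1a, the cell cycle inhibitor p21, was at 5.28 units in M, 3.00 in the library labelled P, 5.09 in the library labelled MP, 3.41 in EV and 5.48 in WT. Trib2, a pseudokinase that Meis1 activates in leukaemia cells, was at 10.0 in M, 8.24 in the library labelled P, 11.3 in the library labelled MP, 7.83 in EV and 12.3 in WT. Myb, a factor of blood progenitors, was at 1.53 units in M, 0.897 in the library labelled P, 1.24 in the library labelled MP, 0.524 in EV and 1.23 in WT, which in M and EV is near the receptor signal. The other 3 kept did not follow Meis1 in this way: over EV, M had log2 ratios of -0.33 for Ccnd1 (cyclin D1, 12.4 units in M and 15.8 in EV), -0.12 for Ccnd3 (cyclin D3) and 0.07 for Hif1a, the hypoxia factor. Of the reported PREP1 targets, Bcl2l1 and Plau were kept and 0 of 2 passed 2-fold in any comparison. Their log2 ratios of EV over WT were 0.27 for Bcl2l1, an inhibitor of cell death, and 0.31 for Plau, the urokinase protease.

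The genes whose pattern over the 5 libraries was most like that of each member were found by root mean square distance between centred log2 profiles, among 9038 or more genes at 5 units or more in some library. A gene could enter through 1 library alone, so a high value there is partly set by this filter. For Meis1, whose profile spans 0.93, these were Kcnh2, Vdr, Adamts9, Inpp4a and Kcnab1, at distances of 0.119 to 0.166. Kcnh2, a potassium channel, was at 5.20 units in M, 2.83 in the library labelled P, 4.98 in the library labelled MP, 2.17 in EV and 4.72 in WT, and Vdr is the vitamin D receptor. For Meis2 they were Dmrta2, Lrp5, Tctn1, Agpat2 and Trim46, all within 0.0133 to 0.0524 of a profile that spans 1.08. Lrp5, a Wnt co-receptor, was at 4.83 units in M, 8.29 in the library labelled P, 5.38 in the library labelled MP, 5.72 in EV and 11.8 in WT.

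For Meis3 the most alike genes included Porcn, Tppp3, En1 and S100a16, at 0.0919 to 0.121 of a span of 2.05. En1, the homeobox gene engrailed 1, was at 1.18 units in M, 2.77 in the library labelled P, 1.69 in the library labelled MP, 1.58 in EV and 7.40 in WT. For Pknox1 they were Cpa6, Ccser1, Dpt, Elmo1 and Fam129a, at 0.213 to 0.369 of a span of 2.95. Dpt, the matrix protein dermatopontin, was at 0.979 units in M, 0.101 in the library labelled P, 0.267 in the library labelled MP, 0.963 in EV and 5.96 in WT. En1 and Dpt reached 5 units in WT alone, the library where Meis3 and Pknox1 were highest, so the filter favoured such genes. For Pknox2 they included Mustn1, Tfb1m, Adora2b and Ube2l6, at 0.147 to 0.194 of a span of 1.08. Among the members themselves, Meis2 and Meis3 were the closest pair (0.333) and Meis1 and Pknox1 the farthest apart (1.09). With 5 points per profile many genes lie close to any pattern, and no p is given.

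The chromosomal neighbours of each gene were read to see whether a member's value was shared along its chromosome. Neighbours here are the nearest protein-coding genes in RefSeq order that have a locus of their own. Around Pknox1 these were Wdr4, Ndufv3, Cbs and U2af1, with log2 ratios of EV over WT between -0.20 and 0.25, beside -1.93 for Pknox1. Their ratios of the library labelled P over EV were -0.44 to 0.24, beside -1.03 for Pknox1; Cbs, at the low end, was under 1 unit in all 5 libraries. Around Meis1, the neighbours C1d, Etaa1, Spred2 and Actr2 had ratios of M over EV of 0.10 to 0.30, beside 0.93 for Meis1. Around Meis3, Dhx34 was at 6.05 units in EV and 11.02 in WT (log2 -0.77), on the same side as Meis3 at -1.53, while Zfp541, Slc8a2 and C5ar2 were under 1 unit in every library. Around Pknox2, Fez1 lay 0.80 higher and Tmem218 0.72 lower in EV than in WT, on both sides of Pknox2 at 0.11. Around Meis2, Fam98b was 0.37 higher and BC052040 0.49 lower in EV than in WT, beside -0.92 for Meis2. None of the 20 neighbours passed 2-fold in EV over WT, where 3.2% of all genes kept were higher and 6.31% lower. None passed it in the library labelled P over EV, where 0.654% were higher and 1.85% lower. Neighbours under 1 unit in both libraries could not pass it, because 1 unit is added. At such shares the count says little about whether a difference was confined to a member.

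**Figure D5:**
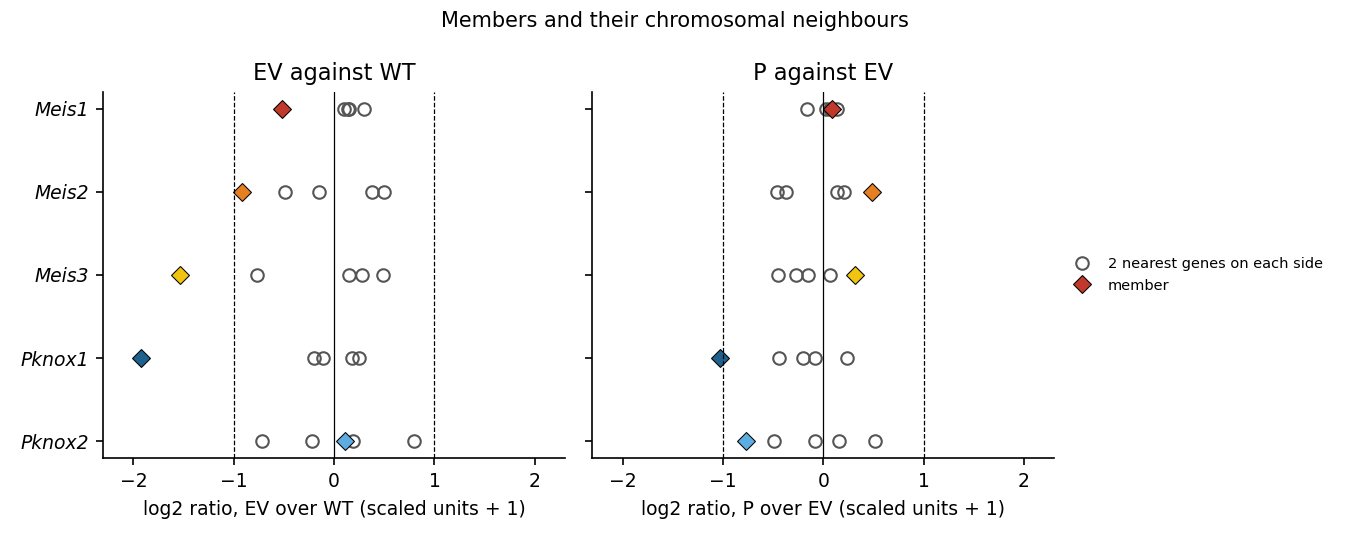
Log2 ratio (horizontal axes, 1 scaled unit added) of each member (diamond) and of its neighbours (open circles), for EV over WT on the left and the library labelled P over EV on the right. Neighbours are the 2 nearest protein-coding genes with a locus of their own on each side, and dashed lines mark 2-fold. Pknox1 at -1.93 and -1.03 lies outside the range of its neighbours in both panels, and no neighbour passes a dashed line. Neighbours under 1 unit in both libraries cannot pass one.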

How the data were processed

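Total RNA of 5 MEF cultures was sequenced, per the labels' protocols, and the labels gave the groups. In 4 tables deposited by the authors, EV stands beside each of the other libraries, with FPKM values per locus and the p-value and q-value of the authors' test; per the submitters' processing notes, TopHat, Cufflinks and Cuffdiff were used with build mm9. Versions, annotation, read filters and depth are not given in the sources used here, so no counting interval could be made. Of 61082 loci, 37277 without a symbol and 911 joining several genes were set apart; 22894 single-gene loci remained, and the locus with the highest mean was used where a symbol had several. The EV column came from the table with M. The tables were made separately, so levels set side by side rest on the scaling. Each library was scaled to its upper quartile over the 22338 single-gene loci at 1 FPKM or more in any library, set to 10. Ratios are log2((units + 1)/(units + 1)) over genes at 1 unit or more in either library, and a gene counts as apart at 2-fold. The deposited tables held 0 columns of per-sample values beyond those mapped.

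The members and lists were chosen with earlier results of these data known. Named genes were the 5 members, members of the fixed lists at least 2-fold apart or described with their list, the 5 most alike genes per member, and the 2 nearest genes on each side. Some of the genes named by this rule are not reported here. Neighbours came from the gene order of the RefSeq assembly GRCm38.p6, since the files hold no coordinates. Only protein-coding genes with a single-gene locus that did not overlap the member were used, so closer genes of other kinds were passed over. Nearby loci without a symbol were not analysed here. How reads shared between genes were assigned is not given, and strand was not considered. Python 3.11.15, pandas 2.3.3, NumPy 2.4.6, Biopython 1.88 and matplotlib 3.10.9 were used. The scripts were tested on simulated data. Alternatives were other scalings (median, quantile, housekeeping genes, none), a pseudocount of 0.1, other filters, the sum over loci, another EV column and, chosen after seeing the data, subtraction of background medians.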

Additional observations from a re-analysis of the deposited data

Results flagged for a closer look

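Meis1 differed in opposite directions between lines with and without the Prep1 label, in the 2 backgrounds: the library labelled MP lay 0.12 below M (log2 -0.115), while the library labelled P lay 0.08 above EV, a difference of -0.197 between the log2 ratios. The difference was not tested, since each group held 1 library, and the first ratio changed sign with median scaling (0.25). Pknox1 itself goes against the Prep1 label in both of these libraries.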

How the results depend on the processing

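Counts of genes at least 2-fold apart depended on the scaling and the filter. In M over EV the count was 103 (33 higher and 70 lower), with 3746 under median scaling (419 and 3327), 56 under housekeeping scaling (26 and 30), 386 with a pseudocount of 0.1, 199 after subtracting the median of loci without a symbol (152 and 47), 15485 unscaled (12906 and 2579) and 37 with a filter of 5 units; quantile normalization gave 78 and 67. For the library labelled P over EV it was 279 (73 and 206), with 7100 (187 and 6913), 170 (88 and 82), 536, 718 (646 and 72), 20851 (12 and 20839) and 99 in the same settings. For the library labelled MP over EV it was 249 (23 and 226), with 7020, 122, 555, 383 (306 and 77), 20816 and 69, and 53 and 140 by quantile normalization. In EV over WT it was 1109 (373 and 736), with 8228 under median scaling (7390 and 838), 1747 with a pseudocount of 0.1, 1964 after that subtraction (204 and 1760), 20560 unscaled (20544 and 16) and 661 with a filter of 5; housekeeping scaling gave 185 and 1024. In the library labelled MP over M it was 164 (25 and 139), with 3268 under median scaling, 71 under housekeeping scaling, 355 with a pseudocount of 0.1, 18532 unscaled (2 and 18530) and 20 with a filter of 5; quantile normalization gave 41 and 111, and that subtraction 74 and 44. Between the libraries labelled MP and P it was 109 (27 and 82), with 656 under median scaling (399 and 257), 363 with a pseudocount of 0.1 and 66 with a filter of 5; housekeeping scaling gave 14 and 82 and quantile normalization 36 and 42. Subtracting the receptor median gave 57 and 66 in M over EV, 111 and 138 in P over EV, 42 and 149 in MP over EV, 287 and 970 in EV over WT and 33 and 82 in MP over M. Both subtractions of a background median were chosen after seeing the data, and the cause of these shifts was not tested.

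Median scaling moved the median gene by 0.43 in the library labelled MP over EV, 0.34 in EV over WT, 0.37 in MP over M and 0.39 in MP over P. Housekeeping scaling moved it by 0.13 in M over EV, 0.22 in P over EV, 0.11 in MP over EV, -0.33 in EV over WT and -0.12 in MP over P. Without scaling, EV over WT reversed for Meis3 (2.01) and Pknox1 (1.44), as the median gene moved by 3.72. The 230 member ratios under the scaled alternatives are the same ratios repeated over the settings. Of these, 204 kept their side of 2-fold, 16 fell short of it and 10 passed it newly. Of ratios past 2-fold, 0 reversed, while ratios under 2-fold that changed sign count among the 204. Some settings could hardly move a ratio. Each member has 1 locus, so the sum over loci changed nothing, and the EV columns are of the same library. The background medians subtracted in the libraries labelled P and MP were 0. No paired analysis was possible because each group holds 1 library. Depth is unknown, so what it limits for Pknox1 in the libraries labelled P and MP could not be set.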
